A study of Mus musculus with 4 samples.

Results

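From the messenger RNAs of CDK1 and the B cyclins the oocyte builds maturation-promoting factor, the kinase that drives it out of prophase arrest. The set described here holds these genes and those of their direct regulators. The set was fixed by name, and all 10 genes were found among the 55453 genes of the count table: Cdk1, Ccnb1, Ccnb2, Ccnb3, Cks2, Cdc25a, Cdc25b, Wee1, Wee2 and Pkmyt1. They were measured by RNA sequencing of mouse germinal vesicle oocytes, which are arrested in prophase with an intact nucleus, in 2 libraries of Parp12 knockdown oocytes and 2 libraries of wild-type control oocytes. Parp12 encodes an enzyme of the PARP family, which attaches ADP-ribose to proteins and nucleic acids, and the comparison asks how the oocyte transcriptome differs once it is reduced. All libraries are labelled as oocytes taken straight from the ovary. The sources used here do not say how the knockdown was made, the age and strain of the mice, or how many oocytes went into a library. They also do not say whether replicates are separate collections, and p-values then cover the spread between these 4 libraries alone, which may be technical.

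CDK1 is inactive alone and needs a B cyclin to become a kinase. In the arrested oocyte, WEE1-type kinases and PKMYT1 hold the complex off by phosphorylating a threonine and a tyrosine next to each other in CDK1, and CDC25 phosphatases remove both phosphates when meiosis resumes. The cyclins are later destroyed through a short degradation signal, the destruction box, which is read by the anaphase-promoting complex. Much of this control acts on protein activity, translation and protein stability, which messenger RNA levels do not report.

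The coding bases of these control sites are shown. The WEE1-type kinases, PKMYT1 and the CDC25 phosphatases of the set act on the site in CDK1. The destruction boxes are read by the anaphase-promoting complex, which is outside the set. The bases come from the principal transcripts of GENCODE vM21 (mm10, GRCm38), read along each gene's coding strand. In Cdk1, on the minus strand of chromosome 10, the capitals mark the codons of threonine 14 and tyrosine 15. In the cyclins, all on the minus strand, the capitals mark the first codon of the box, an arginine, and the next fixed position of the box. Boxes were found by a pattern search, and the first match in each cyclin is shown. It was the only match in Ccnb1 and 1 of 2 matches in Ccnb2 and in Ccnb3.
Cdk1: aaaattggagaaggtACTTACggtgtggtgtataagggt
Ccnb1: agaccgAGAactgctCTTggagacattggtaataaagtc
Ccnb2: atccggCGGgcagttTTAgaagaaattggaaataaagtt
Ccnb3: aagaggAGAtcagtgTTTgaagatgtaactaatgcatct
The marked codons are 42 and 45 in Ccnb1, 32 and 35 in Ccnb2, and 54 and 57 in Ccnb3. The second is a leucine codon in Ccnb1 and Ccnb2 and a phenylalanine codon in Ccnb3. Ccnb3 also differs in size, with 1396 codons, against 430 in Ccnb1 and 398 in Ccnb2.

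The libraries held 42576499 and 35805122 counts in the knockdowns and 45230773 and 40938363 in the controls. Parp12 was checked first. It had 32 and 86 counts in the knockdown libraries, against 14279 and 9419 in the control libraries, which left 0.578% of the control CPM on average. Parp12 was also the only gene of 15868 tested that passed edgeR's quasi-likelihood test, with an adjusted p of 1.27e-07, so 0.00630% of tested genes were called. The oocyte label held: all 10 listed oocyte markers had counts, led per length by Gdf9 and Zp3, and they summed to 22565 and 22914 CPM (counts per 1000000 counts of the library) in the knockdowns and 21245 and 21818 CPM in the controls. Of 12 granulosa and cumulus markers, 5 (Amh, Amhr2, Foxl2, Inhba and Krt18) had 0 counts in every library, which allows at most 0.0663 to 0.0838 CPM taking 3 counts as the limit. The whole granulosa list summed to 43.8 and 45.4 CPM in the knockdowns and 48.5 and 52.2 CPM in the controls. Theca and stroma markers, 8 of 9 with counts, summed to 2.40 and 3.38 CPM in the knockdowns and 3.29 and 6.45 CPM in the controls. Of 5 blood and immune markers all had counts in at least 1 library. They summed to 100.9 and 94.0 CPM in the knockdowns and 99.5 and 102.4 CPM in the controls, mostly from Pecam1. The highest count in a library was 4479 for Pecam1, 130 for Cd68, 22 for Hba-a1, 12 for Ptprc and 1 for Hbb-bs. In such bulk libraries, fewer cells of a type and less RNA per cell cannot be told apart.

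No gene of the set passed edgeR's test. All 10 were tested, since the lowest count of any of them in any library was 983, and 0 were called higher or lower at an adjusted p of 0.05, beside 0.00630% of all tested genes. At an unadjusted p under 0.05 edgeR listed 2, Pkmyt1 and Cks2, both higher in the knockdowns, beside 5.51% of all tested genes in either direction and 2.94% higher. DESeq2 called these 2 genes, beside 1.86% of its 16389 genes with an adjusted p. By limma-voom 0 genes were called, in the set as in the whole table. The set's median log2 fold change was 0.03 (7 genes above 0 and 3 below), beside a median of 0.00 over all tested genes, of which 8004 lay above 0 and 7864 below. For 9 genes the 95% interval left out changes of 1.5-fold and more, up or down, as it did for 28.8% of all tested genes. For the 7 genes of the set with a mean over 100 CPM the count was 7, beside 97.8% of the 2427 tested genes at that level.

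**Figure D1:**
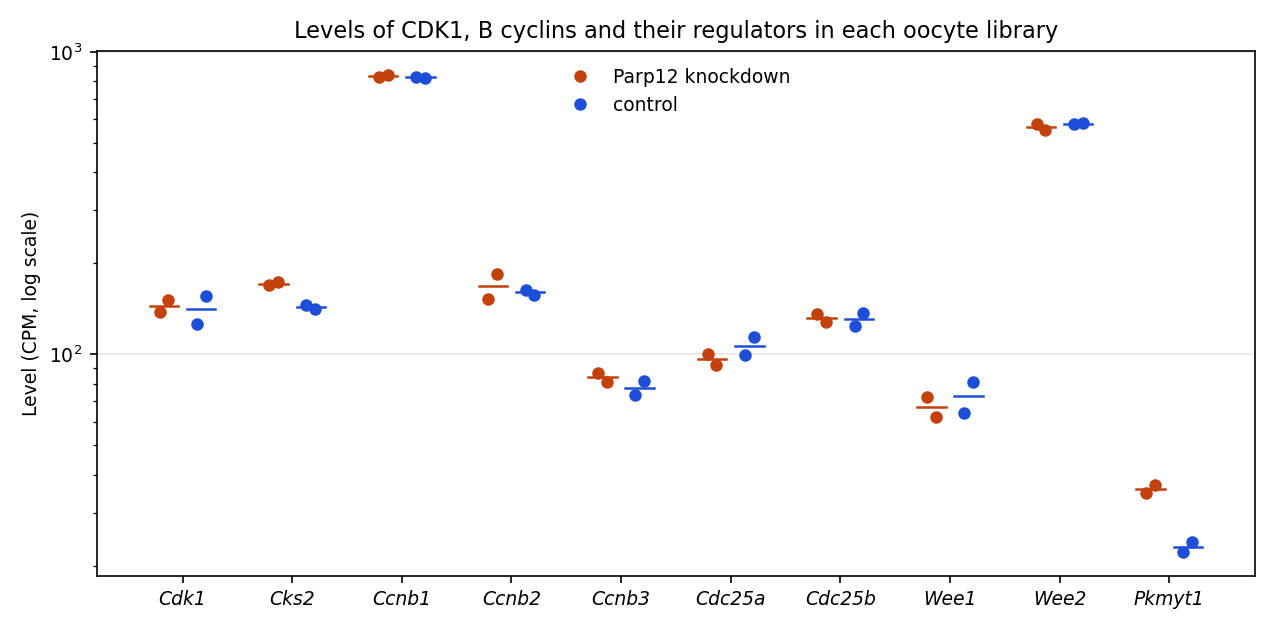
Level of each gene in CPM, on a log axis, with Parp12 knockdown libraries (orange) left of control libraries (blue); each point is a library and each bar the mean of 2. The groups overlap for 8 genes, and both knockdown points lie above both control points for Cks2 and Pkmyt1.

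The kinase itself varied more between the 2 controls than between the group means. Cdk1, on chromosome 10 from 69335146 to 69352938, had 138.7 and 151.5 CPM in the knockdown libraries, against 126.3 and 156.2 CPM in the control libraries. The 2 control libraries were the lowest and the highest of the 4, so the groups overlapped. The counting intervals of the controls (exact Poisson, 95%) were 123.1 to 129.6 and 152.4 to 160.1 CPM, so the controls differed from each other beyond counting error. By edgeR the log2 fold change of Cdk1 was 0.04 with an SE of 0.12, a 95% interval of -0.23 to 0.30 and an adjusted p of 0.979.

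Cks2, a small protein that binds CDK1 and that female mice need to leave the first meiotic metaphase, was the most abundant of the set per exonic length of the table and stood higher in the knockdowns. It lies on chromosome 13 from 51645232 to 51650660, on the plus strand, and had 169.2 and 173.6 CPM in the knockdown libraries, against 145.7 and 141.4 CPM in the control libraries. Both knockdowns lay above both controls, at means of 171.4 ± 3.10 CPM in the knockdowns and 143.5 ± 3.02 CPM in the controls (SD, n = 2 each). Its log2 fold change was 0.25 with an SE of 0.10 and a 95% interval of 0.03 to 0.47. By edgeR the unadjusted p was 0.0282 and the adjusted p 0.835. The exons of Cks2 share 29.7% of their 50-nucleotide stretches with 3 other annotated genes, which had at most 42 counts, so its absolute level is uncertain where the counting set such reads aside.

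Among the B cyclins, cyclin B1 RNA was the most abundant and varied least between libraries. Ccnb1, whose protein is the main CDK1 partner at meiotic resumption, lies on chromosome 13 from 100778650 to 100786570. It had 825.5 and 842.4 CPM in the knockdown libraries, against 830.1 and 822.7 CPM in the control libraries. The lowest of the 4 values was a control and the highest a knockdown, and the groups overlapped. The log2 fold change was 0.01 (SE 0.06), and its 95% interval spanned folds of 0.918 to 1.11. Of its 50-nucleotide stretches, 23.4% occur in 6 other annotated genes, among them the pseudogene Ccnb1-ps with at most 80 counts.

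Ccnb2 can stand in for cyclin B1 in mouse oocytes, and Ccnb3 is needed there for anaphase of the first division. Ccnb2, on chromosome 9 from 70407692 to 70421547, had 152.9 and 184.6 CPM in the knockdowns, against 163.7 and 157.6 CPM in the controls. Both controls fell between the 2 knockdown libraries, and the log2 fold change was 0.06 (SE 0.11). Ccnb3, on the X chromosome from 6979652 to 7041619, had 86.6 and 81.3 CPM in the knockdowns, against 73.6 and 81.5 CPM in the controls. Here the lower knockdown library and the higher control library were nearly equal, and the log2 fold change was 0.12 (SE 0.14). Adjusted p-values by edgeR were 0.963 for Ccnb2 and 0.948 for Ccnb3.

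The makeup of the cyclin B pool was close to even across libraries. Shares were taken per length, as RPKM (counts per kilobase of exon and per 1000000 counts of the library). Ccnb1 held 62.2% and 59.1% of the summed B cyclin RPKM in the knockdowns, against 61.5% and 61.8% in the controls. Ccnb2 held 31.7% and 35.7% in the knockdowns, against 33.4% and 32.6% in the controls. Ccnb3 held 6.03% and 5.27% in the knockdowns, against 5.04% and 5.65% in the controls. The groups overlapped for each of the 3 cyclins. The summed B cyclins stood at 11.2 and 11.0 times the RPKM of Cdk1 in the knockdowns, against 12.5 and 9.97 times in the controls. The controls again bracketed both knockdowns.

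**Figure D2:**
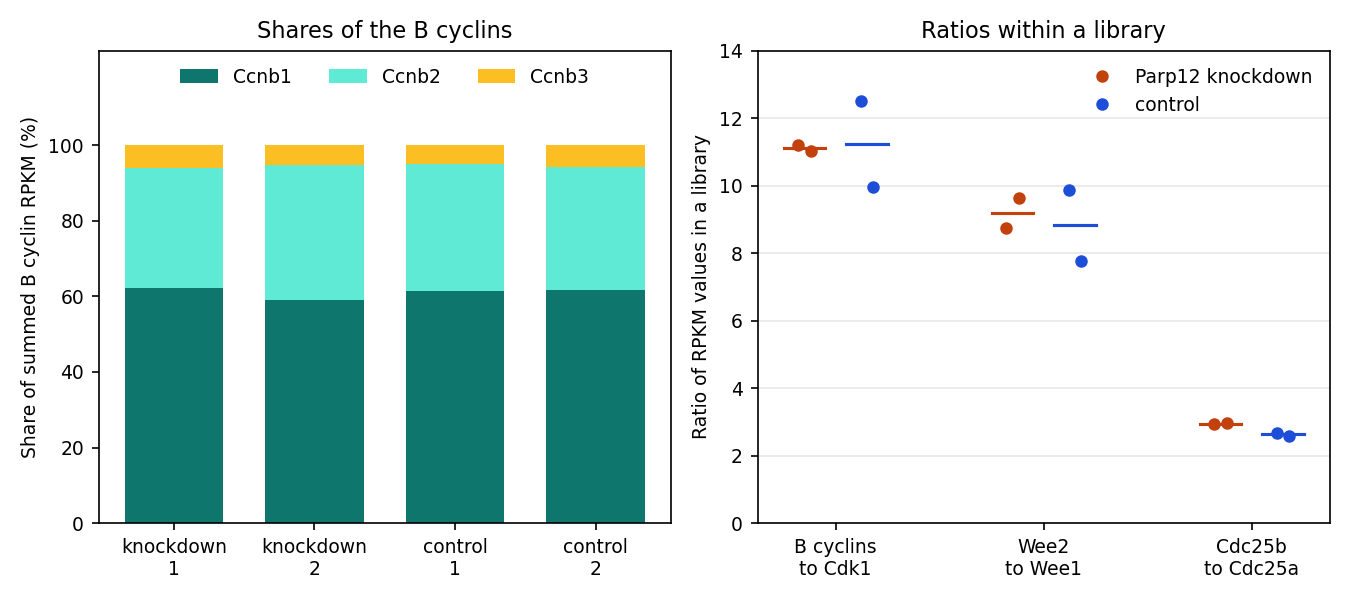
Left, share of the summed B cyclin RPKM held by Ccnb1, Ccnb2 and Ccnb3 in each library; right, ratios of RPKM values within a library, with knockdowns (orange) left of controls (blue), points for libraries and bars for means of 2. Shares overlap between the groups, and of the 3 ratios only Cdc25b to Cdc25a has both knockdowns above both controls.

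The CDC25 phosphatases, which switch CDK1 on, did not pass the test. Cdc25b, without which mouse oocytes stay at the germinal vesicle stage, lies on chromosome 2 from 131186949 to 131198497. It had 136.0 and 127.6 CPM in the knockdown libraries, against 124.0 and 137.0 CPM in the control libraries. Both knockdowns lay between the controls, and the log2 fold change was 0.02, with an SE of 0.11 and a 95% interval of -0.23 to 0.26. Its exons overlap those of Spef1 on the other strand by 92 nucleotides, and Spef1 had at most 38 counts in a library. Cdc25a, on chromosome 9 from 109875579 to 109893895, had 100.1 and 92.4 CPM in the knockdowns, against 99.4 and 113.8 CPM in the controls. Its log2 fold change was -0.14 (SE 0.13), the lowest of the set, and its groups overlapped. Adjusted p-values by edgeR were 0.991 for Cdc25b and 0.918 for Cdc25a.

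Within a library the ratio of Cdc25b to Cdc25a did not overlap between the groups. It was 2.93 and 2.97 in the knockdowns, against 2.68 and 2.59 in the controls, on the RPKM scale. The difference in this ratio was not tested. Single genes did not overlap between the groups in 34.9% of all tested genes, and the like share for ratios of gene pairs was not computed. The other ratios and the cyclin shares overlapped between the groups.

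The inhibitory kinases differed in level and in how even they were. Wee2, the oocyte form of WEE1 in mice, lies on chromosome 6 from 40439088 to 40466813. It had 579.9 and 550.5 CPM in the knockdowns, against 579.9 and 580.8 CPM in the controls. Knockdown replicate 2 was the low library, and the log2 fold change was -0.04, with an SE of 0.07 and a 95% interval of -0.19 to 0.11. Wee1, the form of dividing body cells, lies on chromosome 7 from 110122046 to 110143286 and had 72.2 and 62.2 CPM in the knockdowns, against 64.0 and 81.3 CPM in the controls. The highest of these was a control and the lowest a knockdown, the groups overlapped, and its log2 fold change was -0.10 (SE 0.16). Per length, Wee2 stood at 8.75 and 9.64 times Wee1 in the knockdowns, against 9.87 and 7.78 times in the controls, and these groups overlapped.

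Pkmyt1, the membrane-bound kinase that phosphorylates both sites in CDK1, had the lowest CPM of the set and the fold change farthest from 0. It lies on chromosome 17 from 23726336 to 23736735, on the plus strand, and had 1478 and 1328 counts in the knockdown libraries, against 1006 and 983 counts in the control libraries. These are 34.7 and 37.1 CPM in the knockdowns, against 22.2 and 24.01 CPM in the controls. Both knockdowns lay above both controls, and the counting intervals of the lower knockdown (33.0 to 36.5 CPM) and the higher control (22.5 to 25.6 CPM) did not touch. Such intervals cover counting error only, and not the spread between replicates. Its log2 fold change was 0.63 (SE 0.22), and the 95% interval ran from a fold of 1.11 to a fold of 2.17, so it was the only interval of the set that did not exclude a 1.5-fold or a 2-fold change. The unadjusted p was 0.0145, 174th among the 15868 tested genes, and the adjusted p was 0.835 by edgeR. Pkmyt1 overlaps Paqr4 on the other strand by 319 exonic nucleotides. Paqr4 had 200 and 337 counts in the knockdowns, against 282 and 316 in the controls, so its groups overlapped.

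Groups that do not overlap were common across the transcriptome. Pkmyt1 and Cks2 were 2 of 10 genes of the set with both knockdowns above both controls, beside 18.0% of all tested genes, and 0 of 10 had both below, beside 16.8%. Over the same libraries the summed oocyte markers were higher and the summed granulosa markers lower in both knockdowns than in both controls, by the values given above, though the members of each list were mixed. Of the 10 tested oocyte markers 7 had log2 fold changes above 0 and 3 below, with a median of 0.07. At an unadjusted p under 0.05 edgeR listed 3 of the 10 as higher, beside 2.94% of all tested genes, and 0 as lower. These were Zp1 at 0.15, Zp2 at 0.12 and Ddx4 at 0.33. Figla was the lowest of the list at -0.48. Of the 4 tested granulosa markers 2 lay above 0 (Fshr and Gja1) and 2 below (Kitl at -0.45 and Cyp19a1 at -0.09), with a median of 0.16. Kitl and Cyp19a1 held most of the summed CPM. Fshr, at 0.40 (SE 0.76), had 77 and 192 counts in the knockdowns, against 77 and 147 in the controls. Gja1, at 2.42 (SE 1.83), had 0 and 89 counts in the knockdowns, against 18 and 0 in the controls, so its value rests on 1 knockdown library. The part of both marker lists in the results for Pkmyt1 and Cks2 was not tested. By DESeq2, which called 1.86% of its 16389 genes with an adjusted p (1.07% higher), the adjusted p was 0.0162 for Pkmyt1 and 0.0487 for Cks2. With each library left out in turn, edgeR's unadjusted p ran from 0.0317 to 0.0649 for Pkmyt1 and from 0.0395 to 0.110 for Cks2.

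**Figure D3:**
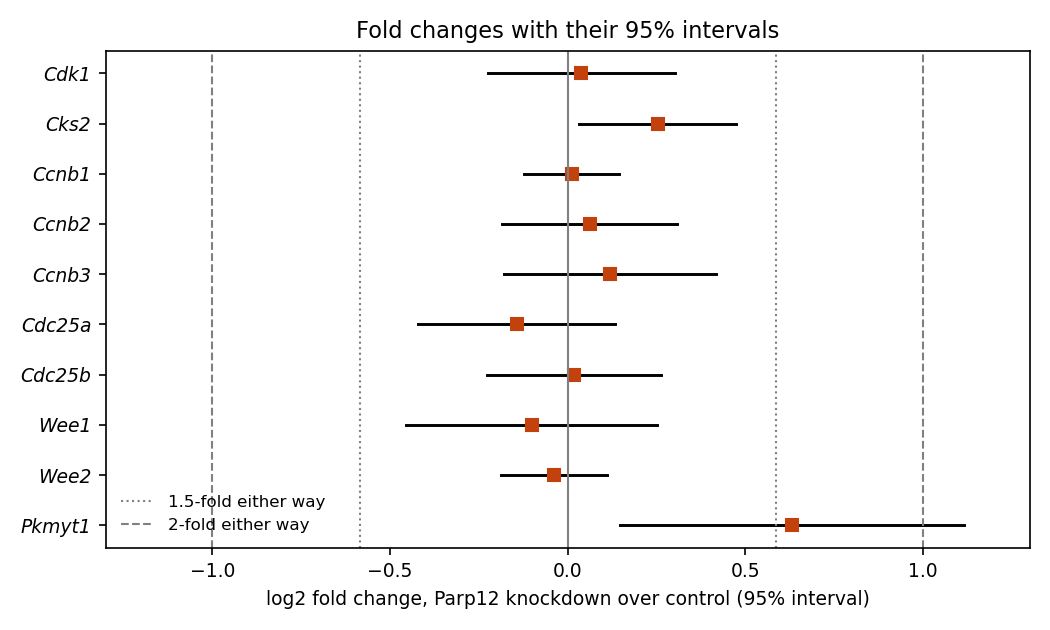
log2 fold change of each gene, Parp12 knockdown over control, from edgeR, with its 95% interval; dotted and dashed lines mark 1.5-fold and 2-fold in either direction. The intervals of 9 genes lie inside the 1.5-fold lines, and that of Pkmyt1 runs from 0.15 to 1.12.

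**Figure D4:**
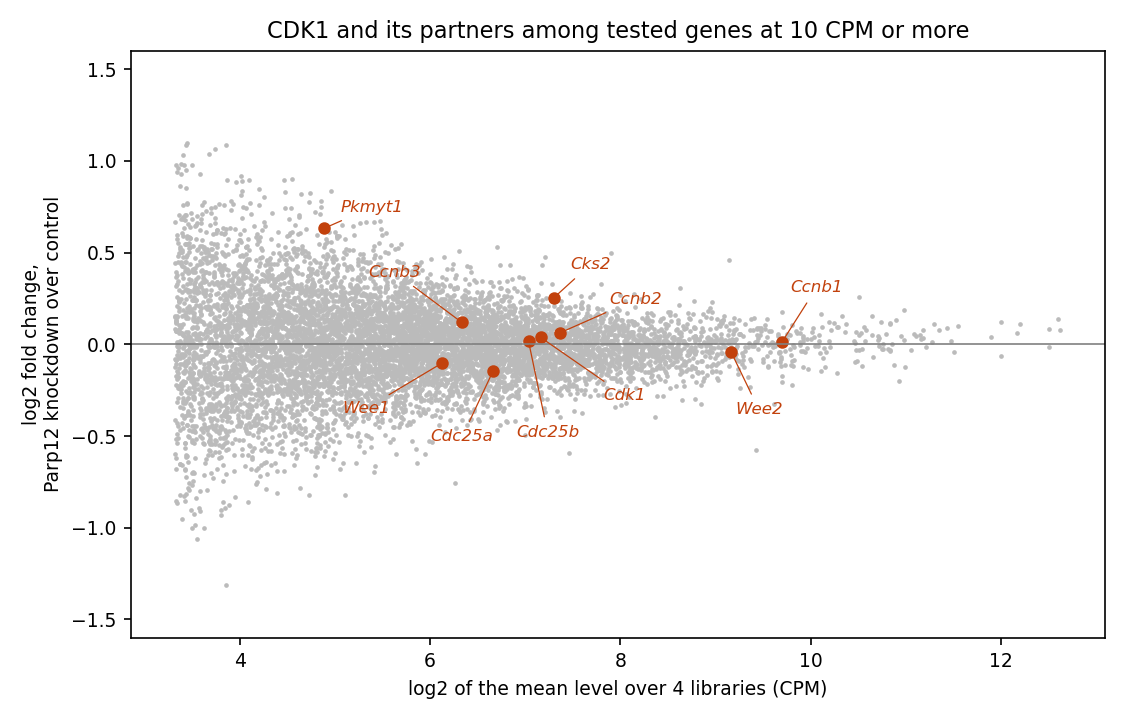
log2 fold change, Parp12 knockdown over control, against the log2 of the mean CPM for 8431 tested genes (grey) with a mean of at least 10 CPM; Parp12 itself lies below the axis. The 10 genes of the set (orange) lie within the cloud, with Pkmyt1 near its upper edge at 0.63.

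Per length, the set spanned a wide range of levels. With the exonic lengths of the count table, Cks2 came first with 247.7 ± 4.48 RPKM in the knockdowns and 207.4 ± 4.36 RPKM in the controls (SD, n = 2 each). Ccnb1 followed with 197.8 ± 2.85 RPKM in the knockdowns and 196.0 ± 1.26 RPKM in the controls, then Wee2 with 180.0 ± 6.64 and Ccnb2 with 110.2 ± 14.7 RPKM in the knockdowns, against 184.8 ± 0.200 and 104.9 ± 2.83 RPKM in the controls. A gap separated these 4 from Cdc25b and Cdk1, at 35.4 ± 1.59 and 29.4 ± 1.84 RPKM in the knockdowns and 35.0 ± 2.46 and 28.6 ± 4.29 RPKM in the controls. Wee1, Ccnb3, Cdc25a and Pkmyt1 came last, between 6.11 and 23.8 RPKM in all 4 libraries. Neighbours in this order kept their order in all 4 libraries, and the ranges over the libraries overlapped only for Wee1 and Ccnb3. In the controls Cks2 ranked 181st, Ccnb1 195th and Wee2 209th of all genes in the table, whereas Pkmyt1 ranked 6025th.

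The order depends in part on the length used. The table's exonic length counts every annotated exon, which for Ccnb1 is 4217 nucleotides, against 2489 in its longest coding transcript, and for Cdc25a 8023 against 3632. With the latter lengths, an alternative chosen after seeing the data, Ccnb1 came before Cks2, at 335.1 RPKM in the knockdowns and 332.0 RPKM in the controls. Cdc25a moved above Wee1, to 26.5 RPKM in the knockdowns and 29.4 RPKM in the controls, and its range then overlapped that of Cdk1. Pkmyt1 had 17.6 RPKM in the knockdowns and 11.3 RPKM in the controls with these lengths, its range overlapped that of Ccnb3, and Ccnb3 was the higher of the pair in 3 of 4 libraries. Fold changes of single genes do not depend on length.

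In sequence, the promoters of the set often held the CCAAT motif. RefSeq promoters (GRCm38.p6, 250 bases before to 50 after the start) were found for 8 of the 10 genes, all but Wee1 and Pkmyt1. The promoter of Wee2 spans 40442613 to 40442912 on chromosome 6. It thus lies inside the gene as placed above, and not at its first base, 40439088. CCAAT, searched on both strands, was in 7 of 8, all but Ccnb3, and in 37.4% of all 32851 promoters. TTTGAA, the core of the cell cycle element through which MuvB complexes control genes of mitosis, was in 2 of 8 (Cdk1 and Ccnb2) and in 17.9% of all. Its variant TTTAAA was in 2 of 8 (Ccnb1 and Ccnb3) and in 13.2% of all. A match describes the letters only.

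Other genes of the pathway were read against the shares over all tested genes, of which edgeR called 0.00630% and listed 5.51% at an unadjusted p under 0.05. For lists of this size, counts of 0 are near those shares. Of 17 listed further CDKs, cyclins and CDK inhibitors, 16 were tested, with 0 called, 0 at an unadjusted p under 0.05 in either direction by edgeR, and a median log2 fold change of -0.07. Its most abundant members per length were Cks1b, a relative of Cks2, at 49.5 ± 4.82 RPKM in the knockdowns and 57.0 ± 4.54 RPKM in the controls, and Ccna2, cyclin A2, at 46.1 ± 1.42 RPKM in the knockdowns and 43.6 ± 1.85 RPKM in the controls (SD, n = 2 each). The smallest p was that of Ccna1, cyclin A1, with 0 and 30 counts in the knockdowns, against 65 and 60 counts in the controls, and an unadjusted p of 0.187 by edgeR.

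The phosphatases that oppose CDK1 and the Greatwall kinase that restrains them made up a list of 12 genes, all tested. Of these 0 were called and 0 reached an unadjusted p under 0.05 by edgeR, beside 5.51% of all tested genes, and their median log2 fold change was 0.02. Ppp2r1a, the scaffold subunit of PP2A, was the most abundant of the list per exonic length and the gene with the smallest p. It had 62.4 ± 0.666 RPKM in the knockdowns and 55.5 ± 5.29 RPKM in the controls (SD, n = 2 each), with an unadjusted p of 0.110 by edgeR. Mastl, which encodes Greatwall, had 47.7 ± 0.0261 RPKM in the knockdowns and 44.8 ± 0.645 RPKM in the controls.

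Genes that act on the CDC25 and WEE1 enzymes or on cyclin B numbered 17, all tested, with 0 called and 0 at an unadjusted p under 0.05 by edgeR, beside 5.51% of all tested genes. Their median log2 fold change was 0.04. Cpeb1, which controls the polyadenylation and translation of cyclin B messenger RNA in oocytes, had 265.0 ± 5.97 RPKM in the knockdowns and 255.6 ± 2.20 RPKM in the controls (SD, n = 2 each). Ywhae, a 14-3-3 protein of the family that holds phosphorylated CDC25 inactive, had 194.4 ± 12.5 RPKM in the knockdowns and 190.4 ± 19.2 RPKM in the controls. Ywhab, of the same family, had the smallest p, 0.0599 unadjusted by edgeR, at 66.2 ± 2.28 RPKM in the knockdowns and 75.0 ± 1.94 RPKM in the controls.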

How the data were processed

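Raw read counts per gene were deposited by the authors in a table that also gives exon coordinates, strand and exonic length, in the layout of featureCounts per the file headers. Tools listed in the submitters' processing notes, with no role or order, are featureCounts 2.0.0, STAR 2.7.5b, DESeq2 1.28.1 and Trim Galore 0.6.4, and the build is mm10. The sources used here do not say whether strand was used or how reads with several alignments were treated, which bears on Cks2, Ccnb1 and Pkmyt1. All 10 genes had the same start and end in GENCODE vM21.

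Testing used edgeR 4.0.16 (R 4.3.3). After filterByExpr (minimum count 10, total 15) and TMM scaling, groups were compared by glmQLFit (robust) and glmQLFTest with no further covariate, and p-values were adjusted by Benjamini-Hochberg over the 15868 genes tested. The SE behind each 95% interval was derived from the F statistic. CPM and RPKM were computed from library totals. Alternatives were other scalings and filters, the replicate number as a block, each library left out, DESeq2 1.42.0, limma-voom (limma 3.58.1) and edgeR's legacy fit. The tests were first run on simulated data, and their outcome there is not given here. Replicates of a group differed beyond sampling noise, with a chi-square per degree of freedom of 33.1 in the knockdowns and 39.0 in the controls. Intervals and limits from counts cover counting error only. The genes of the set and the further lists were chosen with earlier results of these data known, and the text names each gene of the set, and in each list the 2 most abundant tested genes and the one with the smallest p.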

Additional observations from a re-analysis of the deposited data

How the results depend on the processing

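Over the whole table edgeR called 1 gene, 8 with at least 1 CPM required in both libraries of a group, and between 1 and 2 with each library left out. DESeq2 called 305 and limma-voom 0, where Parp12 had a log2 fold change of -7.73 and an adjusted p of 0.280. Within the set, 0 genes were called under every edgeR alternative and limma-voom, and 2 by DESeq2. Directions of log2 fold changes turned only where a library was left out, and the cause was not tested. Cdk1 then ran from -0.099 (without control replicate 1) to 0.18, and was -0.025 without knockdown replicate 2. Ccnb1 ran from -0.0076 (without control replicate 2) to 0.031, and was -0.0041 without knockdown replicate 2. Ccnb2 ran from -0.075 (without knockdown replicate 2) to 0.20. Cdc25b ran from -0.042 (without control replicate 1) to 0.076, and was -0.030 without knockdown replicate 1. Wee1 ran from -0.26 to 0.062 (without control replicate 2). Pkmyt1 stayed between 0.59 and 0.68 and Cks2 between 0.22 and 0.29 over 13 alternatives each. With a replicate block, 1 gene was called in the table and 0 in the set. The deviations of same-numbered libraries correlated at 0.0080 across tested genes. This value cannot show whether such libraries were collected or handled together, which the labels do not say.

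With the lengths of the longest coding transcripts, Ccnb1 held 72.3% of the cyclin B pool in the knockdowns and 73.1% in the controls, Ccnb2 23.7% in the knockdowns and 23.1% in the controls, and Ccnb3 3.98% in the knockdowns and 3.75% in the controls. The ratio of Wee2 to Wee1 was then 10.01 in the knockdowns and 9.61 in the controls. That of Cdc25b to Cdc25a was 1.61 in the knockdowns and 1.44 in the controls, and that of the B cyclins to Cdk1 was 13.99 in the knockdowns and 14.2 in the controls. These shifts follow from the lengths. With each library left out, shares and ratios with table lengths moved by less than 1 SD, which for 2 libraries is so by construction.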
